A study of Homo sapiens with 2 samples.

Results

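The genes described here encode the nuclear pore complex and the soluble receptors that carry cargo through it, in carboplatin-treated OVSAHO cells, an established cell line of human serous ovarian carcinoma. Members were chosen by symbol alone. They were the NUP symbols that end in digits, the KPNA, TNPO, IPO and XPO symbols that end in a number, and KPNB1, TPR, RANBP2, RAE1, SEH1L, AAAS, NDC1, POM121, CSE1L, RAN, RANGAP1 and NXF1. This gave 53 of the 26255 gene symbols in the deposited tables. The perturbed group was 1 library of cells in which the series text states raised SMARCA2 and lowered SMARCA4, the alternative ATPases of the SWI/SNF chromatin remodeller. The genotype label calls SMARCA2 stable and SMARCA4 a knockdown. The control group was 1 library, labelled WT in genotype and, in the series text, as control cells with the name siNC. Both cultures received carboplatin, a DNA-crosslinking chemotherapy drug, at 25 µM for 2 days, and no culture without the drug was analysed here. The sample titles carry numbers that the labels do not explain, and clones are one possibility. Every difference below is therefore between 2 libraries, with no replicate and no test.

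Nuclear pores are channels through the nuclear envelope. Outer and inner ring nucleoporins build the scaffold, and nucleoporins with phenylalanine-glycine repeats line the channel. Importins and exportins of the karyopherin beta family bind cargo and pass through these repeats. The small GTPase RAN, loaded with GTP in the nucleus and made to hydrolyse it in the cytoplasm, sets the direction. Bulk messenger RNA leaves by another receptor, NXF1, which does not use the RAN gradient.

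Expression was measured as FPKM, the fragments per kilobase of transcript and per 1000000 mapped fragments, so levels can be set beside each other between genes. The estimated depth was 8850000 fragments in the perturbed library and 9050000 in the control. SMARCA2 was at 2.60 FPKM in perturbed cells and 0.205 FPKM in control cells, and SMARCA4 was at 4.49 FPKM against 27.9 FPKM, as the series text states. Of 5 epithelial markers, KRT8 was at 462 FPKM in perturbed cells and 488 FPKM in control cells, KRT18 at 362 and 420 FPKM, EPCAM at 40.9 and 27.1 FPKM, CDH1 at 3.52 and 3.40 FPKM, and KRT19 at 0.356 and 3.04 FPKM. Of 4 serous ovarian markers, PAX8 was at 42.1 and 21.9 FPKM, MSLN at 45.2 and 43.3 FPKM, WT1 at 5.52 and 1.53 FPKM, and MUC16 was listed at 0 in the perturbed library and at 0.0608 FPKM in the control. The blood cell markers PTPRC, HBB and CD3E and the fibroblast markers DCN and LUM were listed at 0 in both libraries, and the fibroblast marker PDGFRA was at 0.0354 FPKM in perturbed cells and listed at 0 in control cells. In bulk RNA, fewer cells that express a gene and less of its RNA per cell cannot be told apart.

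A gene counted as measured when either library held it at 1 FPKM or more. It was called higher or lower when log2((FPKM + 1) / (FPKM + 1)), perturbed over control, reached 1 or -1, which is a 2-fold rule of size and not a test. Of the 53 members, 50 were measured. KPNB1 and XPO6 were higher and NXF1 was lower. Thus 2 of 50 members (4%) were higher, beside 7.85% of the 11785 measured genes, and 1 of 50 (2%) was lower, beside 7.61%. The members stood out by no excess of calls. Their median log2 ratio was -0.11, beside -0.059 over all measured genes. Across all genes the split was 925 higher and 897 lower. With each library scaled to the same FPKM sum it was 1257 and 685, while the 3 called members stayed the same. That scaling raised every FPKM ratio by 0.14 on the log2 scale without a pseudocount.

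**Figure D1:**
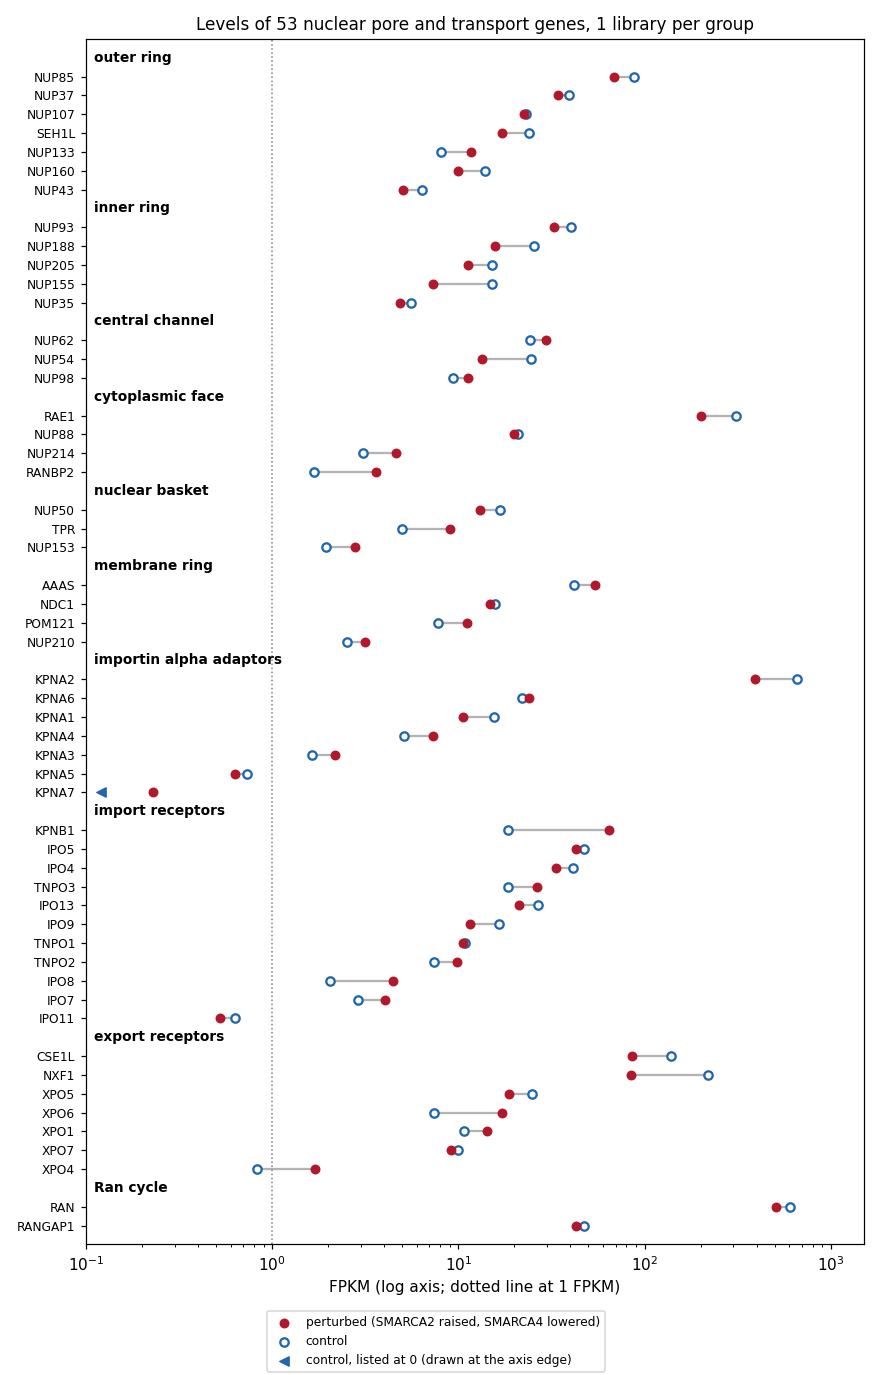
Level of each of the 53 members in the perturbed library (filled points) and the control library (open points), in FPKM on a log axis, grouped by role. Levels run over more than 3 powers of 10, from KPNA7, at 0.228 FPKM in perturbed cells and listed at 0 in control cells, to RAN at 510 FPKM in perturbed cells and KPNA2 at 660 FPKM in the control.

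The largest ratio among the members was that of KPNB1, importin beta, the receptor that carries the classical import complex through the pore. KPNB1 was at 64.5 FPKM in perturbed cells and 18.5 FPKM in control cells, 3.48-fold higher, with a 95% counting interval of 3.20 to 3.78. The interval is an exact binomial interval on approximate fragment numbers, about 2492 against 732, and covers counting error only. KPNB1 ranked 7 among the members by level in the perturbed library and 22 in the control. With the shortest of its annotated transcripts the interval was 3.14 to 3.86.

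XPO6, the export receptor for actin and profilin, was at 17.2 FPKM in perturbed cells and 7.42 FPKM in control cells, 2.32-fold higher (2.01 to 2.68). It was the other member called higher. NXF1, the receptor that exports bulk messenger RNA, was at 84.3 FPKM in perturbed cells and 219 FPKM in control cells, 2.59-fold lower (2.47 to 2.72). NXF1 was the only member called lower, and its FPKM difference, -134 perturbed minus control, was exceeded among the members only by that of KPNA2.

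The promoters of XPO6 and NXF1 are shown because these genes were called in opposite directions. The RefSeq promoter table (GRCh38.p14, a later build than the hg19 of the deposited values) held entries for 47 of the 53 members. It held none for KPNB1, KPNA4, KPNA5, KPNA7, NUP43 and XPO7. Each sequence is the 250 bases before the annotated start, 5′ to 3′ on the gene's own strand, and capitals mark motif matches. XPO6 lies at chr16:28211966-28212215 on the minus strand, and NXF1 at chr11:62805441-62805690 on the minus strand.
XPO6: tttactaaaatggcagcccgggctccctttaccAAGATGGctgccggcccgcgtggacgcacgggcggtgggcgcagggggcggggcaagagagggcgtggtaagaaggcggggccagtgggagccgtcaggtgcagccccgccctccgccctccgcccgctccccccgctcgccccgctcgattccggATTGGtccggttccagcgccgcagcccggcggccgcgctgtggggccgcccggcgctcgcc
NXF1: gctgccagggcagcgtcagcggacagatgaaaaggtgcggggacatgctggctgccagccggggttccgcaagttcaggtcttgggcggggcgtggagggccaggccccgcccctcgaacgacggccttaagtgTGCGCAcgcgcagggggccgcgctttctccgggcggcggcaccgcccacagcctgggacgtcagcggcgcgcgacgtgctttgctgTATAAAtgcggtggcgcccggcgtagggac
The first capitals in XPO6, AAGATGG, match the motif of YY1 and begin 217 bases before the start. The second, ATTGG, are a CCAAT box on the other strand and begin at 61 bases. The first capitals in NXF1, TGCGCA, are a half-site of NRF1 and begin 116 bases before the start. The second, TATAAA, are a TATA box and begin at 30 bases. The 2 windows are rich in G and C, at 75.2% in XPO6 and 70.8% in NXF1, and share none of these motifs.

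Over all members in the table, the same search was made on both strands of the 60 windows of 250 bases. The ETS motif, CCGGAAG, was in 20% of the member windows and in 8.52% of all 35116 windows. The NRF1 half-site was in 11.7% of member windows and 6.89% of all. The CCAAT box was in 38.3% of member windows and 32.0% of all, the TATA box in 8.33% and 10.7%, and the YY1 motif in 3.33% and 3.70%. The motifs do not overlap in the 2 printed windows, and some genes have more than 1 window. The ETS motif was in 12 member genes and the NRF1 half-site in 7. All windows include many genes that are silent in these cells, and a match describes letters, not a bound site.

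The outer ring, or Y complex, is the coat-like scaffold on both faces of the pore. Of its 7 members, 6 had a ratio below 0 and none was called in either direction, with a median of -0.29. NUP85, the most abundant of them, was at 68.4 FPKM in perturbed cells and 87.3 FPKM in control cells, 1.28-fold lower (1.18 to 1.38). SEH1L, its direct partner in the complex, was at 17.2 and 23.8 FPKM, 1.39-fold lower (1.22 to 1.59). These partners thus had similar ratios. NUP37, a small propeller protein bound to NUP160, was at 34.3 FPKM against 39.1 FPKM. NUP160, a long arm of the complex, was at 10.02 FPKM against 13.9 FPKM, and NUP43 was at 5.04 against 6.40 FPKM. NUP107 lay closest to equal, at 22.7 FPKM in perturbed cells and 23.2 FPKM in control cells, with an interval that included 1. NUP133, which binds NUP107 at the stem, was the exception, at 11.7 FPKM against 8.10 FPKM, 1.44-fold higher (1.26 to 1.65).

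The inner ring spans the membrane plane and anchors the channel. All 5 of its members had a ratio below 0, with a median of -0.39, and none was called. NUP155, which links the ring to the membrane, was at 7.30 FPKM in perturbed cells and 15.2 FPKM in control cells, 2.08-fold lower (1.79 to 2.42). Its log2 ratio with the pseudocount was -0.97, just short of the rule, and it was called with a pseudocount of 0.1 FPKM. NUP188 was at 15.8 FPKM against 25.5 FPKM, or 1.62-fold lower (1.48 to 1.77). Its large paralog NUP205 was at 11.3 FPKM against 15.1 FPKM, or 1.34-fold lower (1.21 to 1.49). NUP93, the linker that holds both paralogs and recruits the channel nucleoporins, was at 32.5 FPKM against 40.4 FPKM. NUP35, a membrane-binding ring member, was at 4.87 FPKM against 5.54 FPKM, on only about 58 and 68 fragments, and its interval included 1.

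Outside the rings the ratios were more often above 0. In the central channel, NUP62, the repeat-rich nucleoporin at its core, was at 29.4 FPKM in perturbed cells and 24.2 FPKM in control cells, 1.21-fold higher (1.09 to 1.36). Its channel partner NUP54 was at 13.3 FPKM against 24.5 FPKM, or 1.84-fold lower (1.54 to 2.21). The pair, which assemble in 1 complex, differed in direction, and their levels were within 1 FPKM of each other in control cells only. The third partner is listed under its older name, NUPL1, and was at 5.92 FPKM against 6.60 FPKM. NUP98, a mobile repeat nucleoporin, was at 11.3 FPKM against 9.31 FPKM, 1.21-fold higher (1.05 to 1.39).

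On the cytoplasmic face, RANBP2, the giant filament protein that binds RAN and holds RANGAP1, was at 3.63 FPKM in perturbed cells and 1.67 FPKM in control cells, 2.17-fold higher (1.81 to 2.62). The pseudocount left it inside the rule, at a log2 ratio of 0.79. The near-copies of RANBP2 in the RGPD family were at 0.0647 FPKM or less in each library. NUP214, a docking site for export complexes, was at 4.61 FPKM against 3.06 FPKM, 1.51-fold higher (1.26 to 1.81), and its partner NUP88 was at 19.9 FPKM against 20.9 FPKM. RAE1, which binds NUP98 and takes part in messenger RNA export and mitosis, was the most abundant of the nucleoporins among the members, at 201 FPKM against 309 FPKM, or 1.54-fold lower (1.48 to 1.60). RAE1 held 87.7% of the summed FPKM of the 4 members at this face in the perturbed library and 92.3% in the control.

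In the nuclear basket, TPR, which forms the filaments, was at 9.07 FPKM in perturbed cells and 4.97 FPKM in control cells, 1.82-fold higher (1.62 to 2.06). NUP153, which tethers the basket, was at 2.78 FPKM against 1.94 FPKM, and NUP50, a cofactor of importin alpha release, was at 13.2 FPKM against 16.8 FPKM. In the membrane ring, POM121 was at 11.2 FPKM against 7.74 FPKM, 1.45-fold higher (1.27 to 1.64). Its near-identical copy POM121C, which can share its reads, was at 10.5 FPKM against 6.57 FPKM. AAAS, the protein ALADIN mutated in Allgrove syndrome, was at 53.9 FPKM against 41.7 FPKM, 1.29-fold higher (1.16 to 1.44). NDC1, the membrane anchor of AAAS, was at 14.8 FPKM against 15.8 FPKM, and NUP210, a membrane glycoprotein, was at 3.14 FPKM against 2.54 FPKM. Both intervals included 1.

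Taking the rings as one group, 1 of 12 members had a ratio above 0, with a median of -0.33. Of the 14 nucleoporins outside the rings, 9 did, with a median of 0.26. Over all measured genes 46.5% did. This grouping was made after the values were seen and was not tested. Once trends of the ratio on transcript length, GC content and level were removed, 3 of the 12 and 9 of the 14 were above 0, with medians of -0.13 and 0.11. The 2 rings then differed. The outer ring median was -0.050, with 2 of 7 above 0, and the inner ring median was -0.48, with 1 of 5. All 26 nucleoporins among the members lay within the 2-fold rule, while 7.85% of all measured genes were higher and 7.61% lower. NUPL2, a nucleoporin that the symbols left out, was lower.

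**Figure D2:**
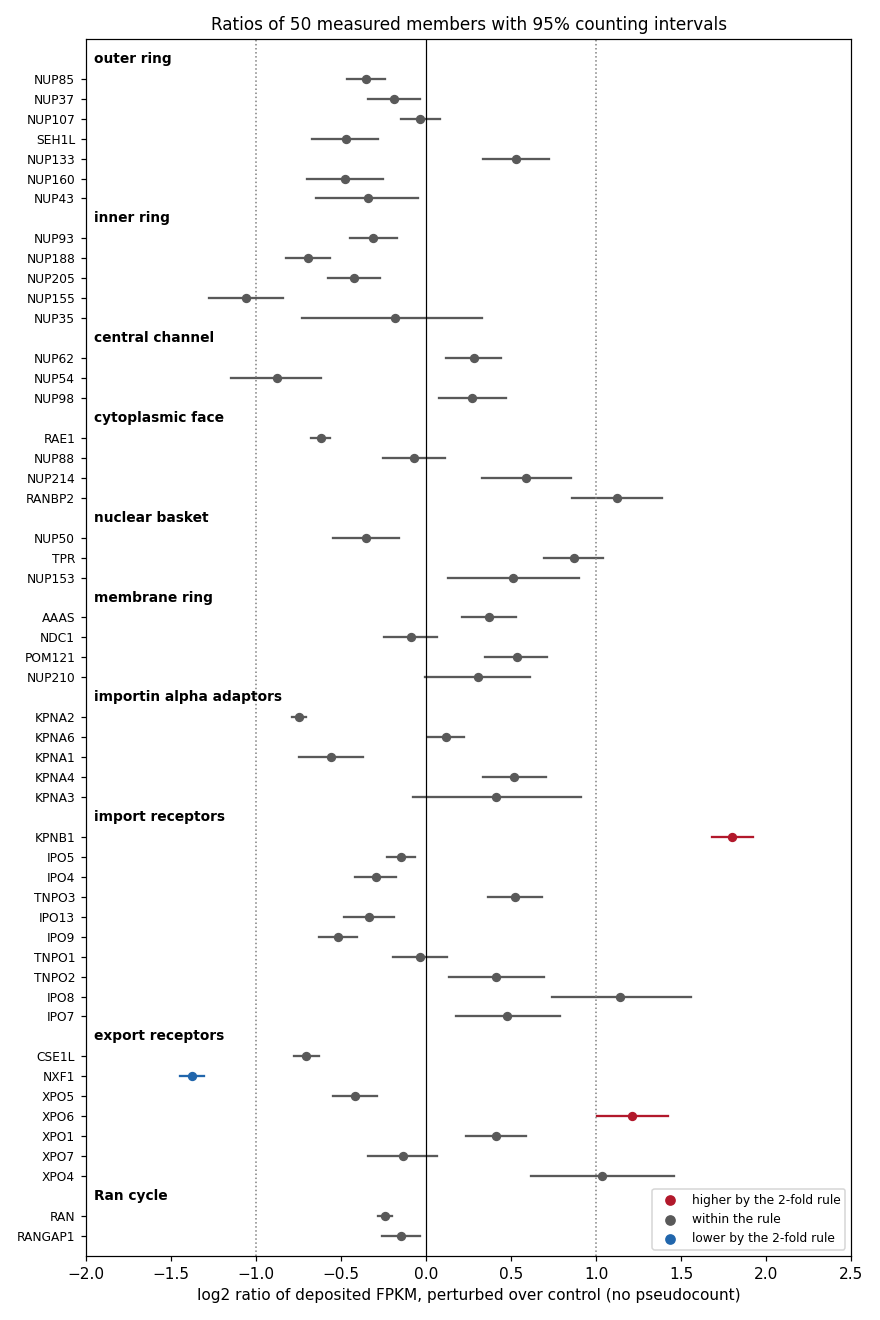
Log2 ratio of deposited FPKM, perturbed over control, for the 50 measured members by role. Bars are 95% counting intervals, which leave out any variation between cultures, and dotted lines mark a ratio of 2-fold. KPNB1 and XPO6 lie to the right of the upper line and NXF1 to the left of the lower one. RANBP2, IPO8 and XPO4 also pass the upper line and NUP155 the lower one. No pseudocount is added here, and with 1 FPKM added these genes lie within the rule.

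Importin alpha proteins are adaptors that bind the classical import signal and hand it to KPNB1. KPNA2 dominated them, at 393 FPKM in perturbed cells and 660 FPKM in control cells, 1.68-fold lower (1.63 to 1.73). Its share of the summed importin alpha FPKM was 89.8% in the perturbed library and 93.6% in the control. The other measured adaptors differed in direction. KPNA1 was at 10.6 FPKM against 15.6 FPKM, or 1.47-fold lower (1.29 to 1.68), while KPNA4 was at 7.31 FPKM against 5.11 FPKM, 1.43-fold higher (1.26 to 1.63). KPNA6 was at 23.9 FPKM against 22.0 FPKM, and KPNA3 at 2.17 FPKM against 1.63 FPKM. KPNA5, at 0.634 FPKM against 0.734 FPKM, and KPNA7 were under 1 FPKM in both libraries. The value of KPNA7 in the perturbed library rested on about 3 fragments, so no fold is given.

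KPNA2 and KPNB1, which work as a dimer, thus had ratios on opposite sides of 0. The level of KPNA2 was 6.09 times that of KPNB1 in the perturbed library and 35.6 times in the control. CSE1L, the exporter that returns importin alpha to the cytoplasm, was at 85.2 FPKM in perturbed cells and 139 FPKM in control cells, 1.63-fold lower (1.55 to 1.71). Its ratio was close to that of KPNA2, and its level was 1.32 times that of KPNB1 in the perturbed library and 7.48 times in the control.

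Of the other import receptors, none was called. KPNB1 took 28.1% of the summed FPKM of this group in the perturbed library and 9.62% in the control. IPO5, an importer of histones and ribosomal proteins, was at 43.0 FPKM in perturbed cells and 47.6 FPKM in control cells. IPO4, an importer of histones, was at 33.5 FPKM against 41.1 FPKM. IPO4 overlaps REC8 on the opposite strand, which the library does not resolve, and REC8 was at 0.223 FPKM against 20.3 FPKM. IPO9, another importer of histones, was at 11.6 FPKM against 16.6 FPKM, or 1.43-fold lower (1.33 to 1.54), the lowest ratio of the group. IPO13, which carries cargo both ways, was at 21.1 FPKM against 26.7 FPKM. IPO8, known to import Argonaute proteins, was at 4.49 FPKM against 2.04 FPKM, 2.203-fold higher (1.67 to 2.94), with a log2 ratio of 0.85 after the pseudocount. Its paralog IPO7, which imports ribosomal proteins, was at 4.03 FPKM against 2.89 FPKM.

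The transportins carry RNA-binding proteins. TNPO3, the receptor for splicing factors of the SR family, was at 26.4 FPKM in perturbed cells and 18.4 FPKM in control cells, 1.44-fold higher (1.29 to 1.60). TNPO2 was at 9.87 FPKM against 7.43 FPKM, and its close paralog TNPO1 was at 10.5 FPKM against 10.8 FPKM. IPO11 was under 1 FPKM in both libraries, at 0.527 against 0.633 FPKM. The read-through locus IPO11-LRRC70, which contains its exons, was at 1.64 FPKM in perturbed cells and listed at 0 in control cells, so the level of IPO11 is uncertain.

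Of the 7 export receptors, XPO6 was called higher, NXF1 lower, and 5 lay within the rule, with a median of -0.13. XPO1, the general exporter of proteins with a leucine-rich signal, was at 14.3 FPKM in perturbed cells and 10.7 FPKM in control cells, 1.33-fold higher (1.18 to 1.51). The level of XPO6 was 1.20 times that of XPO1 in the perturbed library and 0.691 times in the control, so their order differed between the libraries. XPO4, which exports a translation factor, was at 1.70 FPKM against 0.832 FPKM, 2.04-fold higher (1.53 to 2.75), and XPO7 was at 9.10 FPKM against 10.02 FPKM. XPO5, the exporter of microRNA precursors, was at 18.7 FPKM against 25.0 FPKM, or 1.34-fold lower (1.22 to 1.46). XPO5 overlaps POLR1C on the opposite strand, which was at 206 FPKM against 395 FPKM.

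Both RAN cycle members had a ratio below 0, inside the 2-fold rule. RAN was at 510 FPKM in perturbed cells and 604 FPKM in control cells, 1.18-fold lower (1.15 to 1.22). RANGAP1, which makes RAN hydrolyse GTP on the cytoplasmic side, was at 43.0 FPKM against 47.6 FPKM, or 1.11-fold lower (1.02 to 1.20). The level of RAN was 11.9 times that of RANGAP1 in the perturbed library and 12.7 times in the control. In GENCODE 29, RAN has 9 named pseudogenes, and KPNA2, NUP210 and TNPO1 have 3 each. IPO7 and NUP35 have 2 each, and IPO5 and IPO8 have 1 each. How reads shared with such copies were counted is not stated. The IPO5 copy IPO5P1 was at 2.35 FPKM in perturbed cells and 1.06 FPKM in control cells. Other members with exons under a coding gene of the opposite strand were NUP43 (PCMT1, at 138 FPKM in perturbed cells and 193 FPKM in control cells), NUP62 (ATF5, at 10.01 and 4.61 FPKM), NUP88 (RPAIN, at 32.3 and 30.7 FPKM, and RABEP1, at 23.6 and 22.9 FPKM), NUP98 (PGAP2, at 33.2 and 28.2 FPKM), NUP188 (SH3GLB2, at 9.47 and 8.32 FPKM) and TPR (PRG4, listed at 0 in both). On the same strand, exons of NUP62 overlap IL4I1, at 5.03 FPKM in perturbed cells and 7.29 FPKM in control cells. Those of NUP98 overlap CHRNA10, listed at 0 and at 0.318 FPKM, and those of IPO11 overlap KIF2A, at 5.08 and 2.40 FPKM. Exons of POM121 overlap NSUN5P2, not annotated as coding, at 27.9 and 43.0 FPKM. KPNB1 exons overlap AC015674.1, for which no value was at hand.

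Genes around the pore that the symbols left out were listed in the same way. Of 19 other transport genes, 2 (10.5%) were lower, beside 7.61% of all measured genes, and no other was called. The lower ones were NUPL2, a nucleoporin of the cytoplasmic face, at 9.97 FPKM in perturbed cells and 21.2 FPKM in control cells, and NXT2, a paralog of NXT1, at 2.71 FPKM against 7.48 FPKM. With trends on length, GC content and level removed they were at -0.78 and -0.81, short of the rule. SEC13, an outer ring nucleoporin that the symbol rule leaves out, was at 283 FPKM against 333 FPKM, above RAE1 in both libraries. NXT1, the main partner of NXF1, was at 190 FPKM against 200 FPKM. The level of NXF1 was 0.443 times that of NXT1 in the perturbed library and 1.10 times in the control. RANBP1, which helps RAN hydrolyse GTP, and RCC1, which loads it with GTP, were at 574 and 85.1 FPKM in perturbed cells and at 572 and 100.5 FPKM in the control.

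Of 19 messenger RNA export factors that act with NXF1, 2 (10.5%) were higher, beside 7.85% of all measured genes, and no other was called. The median of this list was 0.19, and 9 of the 19 had a ratio below 0. ALYREF, the adaptor that hands messenger RNA to NXF1, was at 75.6 FPKM in perturbed cells and 28.4 FPKM in control cells, 2.67-fold higher (2.29 to 3.12). MCM3AP, which encodes the scaffold of the pore-associated export complex, was at 14.6 FPKM against 5.29 FPKM, 2.77-fold higher (2.41 to 3.18). With the trends removed, ALYREF and MCM3AP were still past the rule, at 1.66 and 1.18. Of 13 measured lamina and envelope genes, 2 (15.4%) were higher and 1 (7.69%) was lower, beside 7.85% and 7.61% of all measured genes. Lamin B2, LMNB2, was at 17.8 FPKM against 7.01 FPKM, and SYNE2, a long linker to the cytoskeleton, was at 2.11 FPKM against 0.368 FPKM. LBR, the lamin B receptor, was at 15.3 FPKM against 32.5 FPKM. With the trends removed, LMNB2 was at 1.16, and SYNE2, at 0.37, and LBR, at -0.72, were no longer past the rule.

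**Figure D3:**
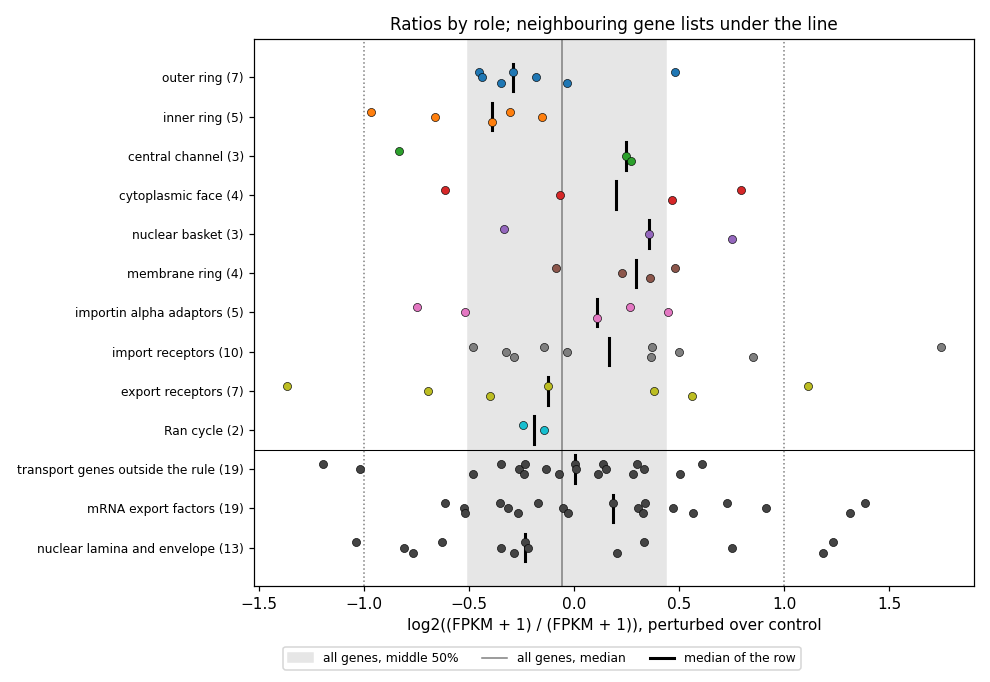
Log2 ratio with a pseudocount of 1 FPKM, perturbed over control, for the measured genes of each role (above the line) and of 3 neighbouring lists (below it), with the number of genes in brackets. Short bars are medians and the grey band is the middle 50% of all measured genes; the medians of both rings, -0.29 and -0.39, lie left of the median of all genes, -0.059, and those of the channel, the cytoplasmic face, the basket and the membrane ring lie right of it.

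The members share properties that the symbols did not select. Their transcripts were long, with a median of 4358 bases against 2567 bases over all measured genes. Their median GC content was 44.6% against 49.9%, and their median level, the mean of both libraries, was 14.5 FPKM against 8.56 FPKM. Their fragment numbers were therefore high, and 42 of the 50 counting intervals left out 1. Of the 50 intervals, 19 (38%) lay above 1, beside 32.2% of genes with a known length. Another 23 of the 50 (46%) lay below 1, beside 39.6%.

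Within the members, the ratio went with level and with length. All 8 members under a mean of 5 FPKM had a ratio above 0, with a median of 0.42, beside 59.7% of all genes at that level. None of the 6 members at 50 FPKM or more did, with a median of -0.66, beside 32.0%. Among the 19 members with transcripts of 5000 bases or more the median was 0.23, and among the 12 under 3000 bases it was -0.27. Over all genes these medians were 0.35 and -0.17. Across the 50 members, Spearman's rho between ratio and log2 mean level was -0.50, and between ratio and log2 length 0.43. Over all genes these were -0.25 and 0.16. Genes of 1 library pair share depth and are not independent replicates, and ratio and mean level are made from the same 2 values.

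With trends on length, GC content and level removed, the members' median was -0.012, beside -0.004 over all genes, and KPNB1, XPO6 and NXF1 were still past the rule, at 1.86, 1.14 and -1.13. The long transcripts RANBP2 and TPR were then at 0.23 and 0.42, beside 0.79 and 0.75 with the trends left in. NUP155 was at -0.87, IPO8 at 0.81 and IPO9 at -0.96. The ratio of RAN, -0.24 with the trends left in, was 0.053, and those of NUP37, NUP88, NUP35, NUP210 and KPNA6 also changed sign.

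**Figure D4:**
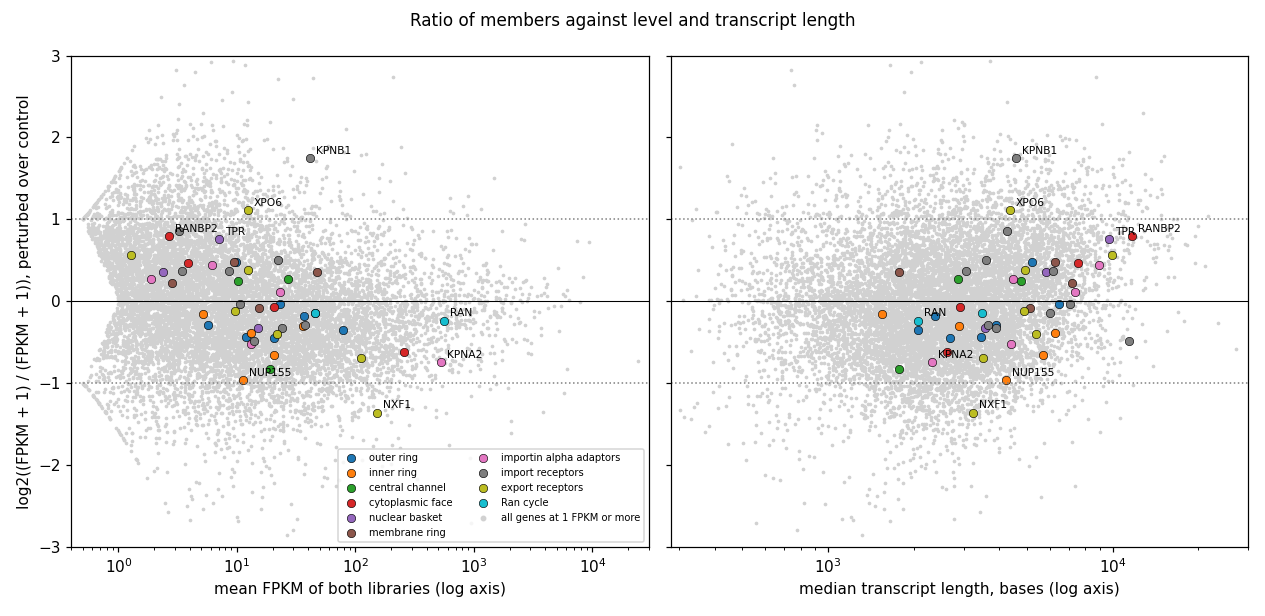
Log2 ratio with a pseudocount of 1 FPKM, perturbed over control, against mean FPKM (left) and transcript length (right), both on log axes, for measured members coloured by role and all measured genes in grey; 66 genes beyond a log2 ratio of 3 fall outside the axes. All 8 members under a mean of 5 FPKM lie above 0, beside 59.7% of all genes at that level. Of the 19 members of 5000 bases or more, 11 do, beside 68.2% of all genes of that length. KPNB1, XPO6 and NXF1 are the 3 outside the dotted 2-fold lines.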

How the data were processed

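RNA was measured in 1 perturbed and 1 control library. Per the labels' protocols, total RNA was taken with a Qiagen micro kit, cDNA was made with SMART-Seq HT and libraries with Nextera XT, which do not mark strand. The authors deposited 1 FPKM value per gene symbol and library. Per the submitters' processing notes, the build was hg19 and the tools included Cuffdiff 2.2.1, TopHat2 2.1.1 with Bowtie2 2.2.8, and SAMtools 0.1.18. Annotation, filters and the counting of multi-mapped reads: not given in the sources used here.

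Members, role groups, neighbouring lists and the 2-fold rule were chosen with earlier results of these data known. Symbols were matched whole, so NUP62CL and NUP210L are no members. The genes named were the members past the rule, RAN, KPNB1, XPO1, NXF1, TPR and RANBP2, the extremes by ratio and the 2 most abundant of each role, and listed genes past the rule; the other members were named so that all are accounted for, and other genes (NXT1, RANBP1, RCC1, NUPL1, SEC13, POM121C and overlapping or near-copy genes) after their values were seen. Transcript lengths and GC content were medians over GENCODE 29 transcripts matched to RefSeq; all 53 members had one, 28 from several transcripts. Depth was chosen jointly with a shortening of 200 bases. The choice put the largest number of values above 0, from 11323 single-transcript genes, in a 2% window at 1 fragment. This step was tested on simulated data. Counting intervals are exact (Clopper-Pearson) at 95%, on fragment numbers from these depths; PCR copies are not independent molecules. Folds in the text have no pseudocount, and log2 ratios have 1 FPKM added unless stated. Python 3.11.15 and SciPy 1.17.1 were used. Alternatives changed the pseudocount, scaling, filter, rule of size and trends.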

Additional observations from a re-analysis of the deposited data

How the results depend on the processing

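The calls of KPNB1 and XPO6 as higher and NXF1 as lower were the only ones, and were made of the same genes, with FPKM scaled to a common sum, centring, a trimmed mean of ratios, no filter, a filter of 5 FPKM in either library or 1 FPKM in each, and with the level trend or the length, GC and level trends removed. With a pseudocount of 0.1 FPKM, 4 members were higher (IPO8 and RANBP2 added) and 2 lower (NUP155 added). In all, 1630 genes were then higher and 1267 lower. With a pseudocount of 5 FPKM, 1 member was higher, KPNB1, and 1 lower, NXF1, with 219 genes higher and 380 lower in all. Without a pseudocount, a setting added after seeing the data, 5 members were higher (XPO4 added) and 2 lower. In all, 1640 genes were then higher and 1275 lower. A 1.5-fold rule gave 5 higher and 7 lower of 50 members, and 2253 and 2505 of 11785 genes. A 4-fold rule gave 0 and 0 of 50 members, and 71 and 84 of 11785 genes. At 5 FPKM in a library, 13 of 42 members had a ratio above 0, because the 8 members left out all had a ratio above 0. Across all genes, 546 were then higher. At 1 FPKM in both libraries 557 were.

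The members' median changed sign to 0.025 with a common sum, where all genes had 0.076, and to 0.092 with the level trend removed, where all genes had 0, so its sign carries no result. Of 240 values of 30 named members under 8 of these settings, 172 lay inside the member's counting interval. Most of these values carry a pseudocount and the intervals do not, so the count does not measure change from the main setting alone. KPNB1, XPO6 and NXF1 kept their direction in each setting. Of the 50 measured members, 6 changed sign with length, GC and level trends removed (RAN, NUP37, NUP88, NUP35, NUP210 and KPNA6), 7 with the level trend removed (IPO5, NDC1, NUP107, NUP37, NUP88, RANGAP1 and TNPO1), 5 with a common sum (NDC1, NUP107, NUP88, TNPO1 and XPO7) and 2 with centring (NUP107 and TNPO1), so the direction of these members rests on the setting. No paired analysis was possible because each group had 1 library, and no replicate could be left out. Depth limits KPNA5, KPNA7, IPO11 and NUP35 most; NUP35 had the fewest fragments of the measured members, about 58.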
